A study of Mus musculus with 12 samples.

Results

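The genes described here make sterols or control their making in mouse bone marrow cells transduced with Hoxa9, a homeobox gene under which myeloid progenitors keep dividing in culture, with or without its cofactor Meis1. They are 8 genes: Hmgcs1, Idi1, Fdft1, Sqle, Lss and Cyp51, which encode enzymes of the pathway, and Insig1 and Srebf2, which encode its regulators. No receptor or transporter for the uptake of sterols is among them, so that uptake is described from a separate list of genes. A gene was followed through every probe set of the deposited exon array table that names it and no other gene, 195 probe sets in all, of 318760 that name 1 of 22296 genes. Of the 195, 194 passed the filter on dim probe sets, and the one left out belongs to Fdft1. The values are log2 gene values, and the arrays number 12.

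All cells came from the bone marrow of female C57B/6 mice 12 weeks of age that had been given 5-FU (5-fluorouracil, which depletes cycling cells and enriches early progenitors), and all carried Hoxa9 in an MSCV retroviral vector. HOXA9+MIY cells carried the empty MIY vector beside it, HOXA9+MEIS1 cells carried full-length Meis1, and HOXA9+MDHD cells carried Meis1 with its DNA-binding homeodomain deleted. The cultures grew in DMEM with 15% FCS and the cytokines IL3, SCF and IL6 for 3 or 4 weeks, and each condition had 4 arrays, 2 at each week. The series' own design text counts 4 independent experiments for each condition, while the sample titles number 2 at each week. Whether week 3 and week 4 arrays share cultures is not stated, so that p-values measure the spread between these samples. Both Meis1 vectors and Hoxa9 are expressed from a retroviral promoter, which limits these cultures as a model of the genes' own levels.

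Cells build cholesterol from acetyl-CoA. Hmgcs1 is the cytosolic synthase that makes HMG-CoA, Idi1 interconverts the isoprenoid building blocks, and Fdft1 joins farnesyl units to squalene, the first step committed to sterols. Sqle oxidises squalene, Lss closes it to the ring system of lanosterol, and Cyp51 takes a methyl group off lanosterol. When membranes are low in sterol, the transcription factor precursor SREBP2, the product of Srebf2, is carried to the Golgi and cut, and its released part switches on the genes of this pathway. When sterol is plentiful, INSIG1 holds SREBP2 with its escort SCAP in the endoplasmic reticulum, and Insig1 is itself a target of the factor.

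The promoters of 3 of the genes are shown because SREBP2 acts together with the factor NF-Y on promoters of this pathway. They are Hmgcs1, the first enzyme of the set, Cyp51, with the largest difference between HOXA9+MEIS1 and HOXA9+MIY, and Srebf2, with the smallest. Each line is the 250 bases before the annotated start, read 5′ to 3′ on the strand of the gene, from RefSeq on GRCm38.p6. Capitals mark matches on either strand to TCACNCCAC, a form of the sterol element, and to CCAAT, the core of the NF-Y box, which reads ATTGG on the other strand. The positions are chr13:119690101-119690350 (plus strand) for Hmgcs1, chr5:4104698-4104947 (minus strand) for Cyp51 and chr15:82147019-82147268 (plus strand) for Srebf2.
Hmgcs1: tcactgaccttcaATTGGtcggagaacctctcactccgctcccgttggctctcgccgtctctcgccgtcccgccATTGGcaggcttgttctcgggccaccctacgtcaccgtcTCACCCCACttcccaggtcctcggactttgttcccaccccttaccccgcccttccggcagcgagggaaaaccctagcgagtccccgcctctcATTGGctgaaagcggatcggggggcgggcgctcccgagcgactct
Cyp51: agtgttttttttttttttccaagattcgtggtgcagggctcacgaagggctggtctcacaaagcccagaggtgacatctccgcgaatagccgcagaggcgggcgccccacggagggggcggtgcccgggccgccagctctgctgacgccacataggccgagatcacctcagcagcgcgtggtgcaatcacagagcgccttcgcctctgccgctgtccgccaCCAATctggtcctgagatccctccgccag
Srebf2: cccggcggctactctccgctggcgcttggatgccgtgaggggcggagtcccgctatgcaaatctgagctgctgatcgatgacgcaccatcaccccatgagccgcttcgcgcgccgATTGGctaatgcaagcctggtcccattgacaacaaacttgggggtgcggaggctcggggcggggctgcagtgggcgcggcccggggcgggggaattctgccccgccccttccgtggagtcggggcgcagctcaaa
A window of 250 bases before to 50 after the start was found for 6 of the 8 genes (not for Sqle and Fdft1). TCACNCCAC was found in 1 of the 6, Hmgcs1, as TCACCCCAC from base -137 to base -129 counted from the start. That motif was in the windows of 1.44% of 27025 genes. CCAAT was found on either strand in 6 of 6, against 41.1% of the 27025 genes, and Hmgcs1 held 4 copies. The motifs do not overlap in these windows, and a match is a description of letters only. Just this form of the sterol element was searched, so that a window without a match may hold another form.

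The vectors were read first. The Hoxa9 value lay between 13.18 and 13.46 on all 12 arrays. Meis1 averaged 6.84 (SD 0.084, n = 4) in HOXA9+MIY, 9.71 (SD 0.092, n = 4) in HOXA9+MEIS1 and 9.43 (SD 0.28, n = 4) in HOXA9+MDHD, and this value reads both forms of Meis1 together. Correlations between arrays over the probe sets ran from 0.962 to 0.982. The labelled progenitor culture was read against marker lists, each summed on the linear scale and given as log2. Ptprc, the pan-leukocyte marker CD45, lay between 10.66 and 11.08 on the 12 arrays. The 4 measured B lymphoid genes summed to 9.04 to 9.52 and the 4 of T and NK cells to 9.58 to 9.79.

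**Figure D1:**
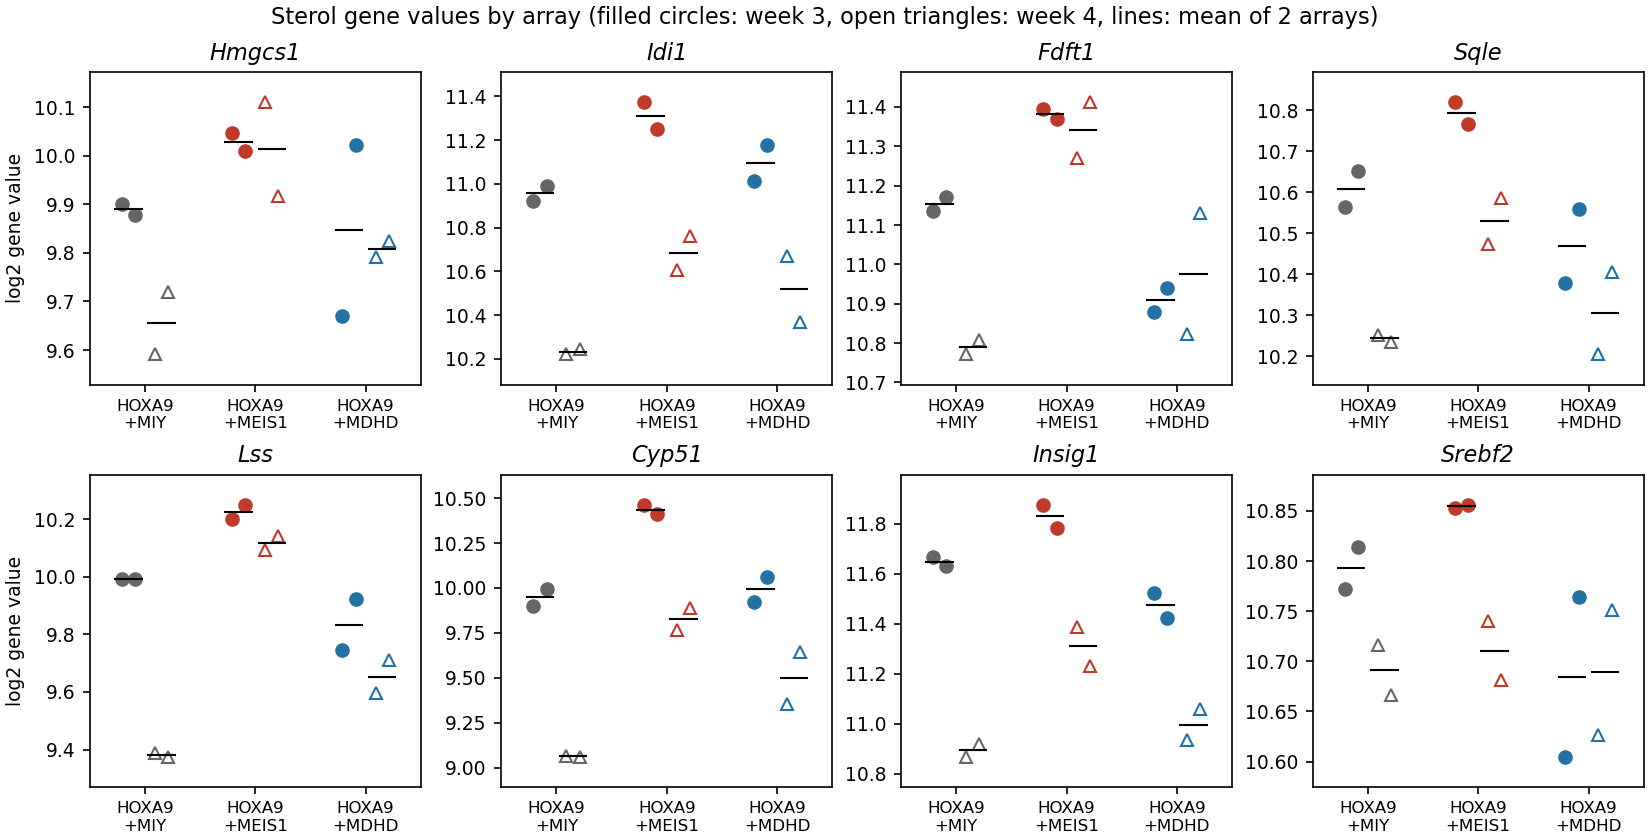
Log2 gene value of each of the 8 sterol genes on each of the 12 arrays, by condition, with week 3 as filled circles, week 4 as open triangles and lines at the mean of 2 arrays; the vertical axes differ between panels and do not start at 0. Cyp51 falls from about 9.95 to 9.06 between the weeks in HOXA9+MIY and stays higher in HOXA9+MEIS1 at each week, while the Srebf2 values of all 12 arrays lie between 10.61 and 10.86.

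Full-length Meis1 on top of Hoxa9 was compared first with the empty vector. Of the 8 genes 6 were higher with Meis1 and 0 lower, at a Benjamini-Hochberg adjusted p under 0.05 in limma over 20711 genes with week as a term, which is what "called" means here. Among all genes 5.29% were called higher, and among the 4143 genes with the highest mean values, which include all 8, 9.22%. The 8 were chosen with earlier results of these data known, so that counts set beside such shares, here and below, are a description. The called genes span the pathway from Idi1 to Cyp51 and include Insig1. The median difference over the 8 was 0.34, against -0.01 over all genes. The arrays of HOXA9+MEIS1 lay above those of HOXA9+MIY with no overlap at either week in 7 of the 8 genes, against 12.4% of all genes. That last share was not taken among the 4143.

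Cyp51, the lanosterol demethylase, differed most. Its values in HOXA9+MIY were 9.90 and 9.99 at week 3 and 9.07 and 9.06 at week 4, those in HOXA9+MEIS1 were 10.46 and 10.41, then 9.77 and 9.89, and those in HOXA9+MDHD were 9.92 and 10.06, then 9.36 and 9.64. At each week both HOXA9+MEIS1 arrays lay above all others. The difference between HOXA9+MEIS1 and HOXA9+MIY was 0.63 ± 0.088 (SE), or 1.54-fold (adjusted p = 0.00052).

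Lss, the lanosterol synthase, differed by 0.48 ± 0.094, or 1.40-fold (adjusted p = 0.00498). It stood at 9.99 on both HOXA9+MIY arrays of week 3 and at 9.39 and 9.38 at week 4. In HOXA9+MEIS1 it stood at 10.20 and 10.25, then 10.09 and 10.14, and in HOXA9+MDHD at 9.74 and 9.92, then 9.60 and 9.71. The HOXA9+MEIS1 arrays of both weeks lay above every array of the other conditions.

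Idi1, the isomerase of the isoprenoid units, stood at 10.92 and 10.99 in HOXA9+MIY at week 3 and at 10.22 and 10.25 at week 4. Its HOXA9+MEIS1 values were 11.37 and 11.25, then 10.61 and 10.76, and its HOXA9+MDHD values were 11.02 and 11.18, then 10.67 and 10.37. Both Meis1 vectors thus lay above HOXA9+MIY at each week, and at week 4 they overlapped each other. The difference between HOXA9+MEIS1 and HOXA9+MIY was 0.40 ± 0.071, or 1.32-fold (adjusted p = 0.00282).

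Fdft1, the squalene synthase, was 1.31-fold higher (log2 0.39 ± 0.088, adjusted p = 0.0126). In HOXA9+MEIS1 it was 11.40 and 11.37 at week 3 and 11.27 and 11.41 at week 4, above every array of the other conditions. In HOXA9+MIY it was 11.13 and 11.17, then 10.77 and 10.81, and in HOXA9+MDHD 10.88 and 10.94, then 10.82 and 11.13.

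Sqle, the squalene epoxidase, had the smallest called difference, 0.24 ± 0.065 or 1.18-fold (adjusted p = 0.0365). It stood at 10.56 and 10.65, then 10.25 and 10.24 in HOXA9+MIY, at 10.82 and 10.77, then 10.47 and 10.59 in HOXA9+MEIS1, and at 10.38 and 10.56, then 10.21 and 10.41 in HOXA9+MDHD. Within a week HOXA9+MEIS1 was highest, but its week 4 arrays overlapped the week 3 arrays of the other conditions.

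Hmgcs1, the HMG-CoA synthase, was not called (0.25 ± 0.081, adjusted p = 0.0753), with a 95% interval of 0.07 to 0.43. Its values were 9.90 and 9.88, then 9.59 and 9.72 in HOXA9+MIY, 10.05 and 10.01, then 10.11 and 9.92 in HOXA9+MEIS1, and 9.67 and 10.02, then 9.79 and 9.82 in HOXA9+MDHD. The HOXA9+MEIS1 arrays lay above those of HOXA9+MIY at each week, and the HOXA9+MDHD arrays of week 3 lay on either side of HOXA9+MIY.

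Of the regulators, Insig1, which retains the SREBP precursor, was 1.23-fold higher with Meis1 (log2 0.30 ± 0.064, adjusted p = 0.00928). Its values were 11.66 and 11.63, then 10.87 and 10.92 in HOXA9+MIY, 11.88 and 11.78, then 11.39 and 11.23 in HOXA9+MEIS1, and 11.52 and 11.42, then 10.93 and 11.06 in HOXA9+MDHD. The HOXA9+MEIS1 arrays were the highest of each week.

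Srebf2, the gene of the transcription factor itself, was not called (0.04 ± 0.053, adjusted p = 0.752), and its 95% interval ran from -0.07 to 0.16. It stood at 10.77 and 10.81, then 10.72 and 10.67 in HOXA9+MIY, at 10.85 and 10.86, then 10.74 and 10.68 in HOXA9+MEIS1, and at 10.61 and 10.76, then 10.63 and 10.75 in HOXA9+MDHD. At week 4 the conditions overlapped. Its whole interval lies below the estimate of each of the other genes, and a difference between genes was not tested.

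The count of 6 rests on taking the weeks into account. With no week term, which leaves the fall from week 3 to week 4 in the spread, 0 of the 8 were called, at the same differences. With the week 3 arrays alone 1 was (Cyp51). With the week 4 arrays alone 4 were, Idi1 (adjusted p = 0.0899) and Sqle (adjusted p = 0.185) losing their calls. The share of all genes called in these fits is not given here, so that the losses are not shown to be particular to the 8. Sqle lost its call without the HOXA9+MIY array of week 3 number 1, either HOXA9+MIY array of week 4, either HOXA9+MEIS1 array of week 3 or the HOXA9+MEIS1 array of week 4 number 2, with adjusted p from 0.0154 to 0.114 over the 12 arrays left out in turn. Hmgcs1 was called without the HOXA9+MDHD array of week 3 number 1 (range 0.0314 to 0.214).

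**Figure D2:**
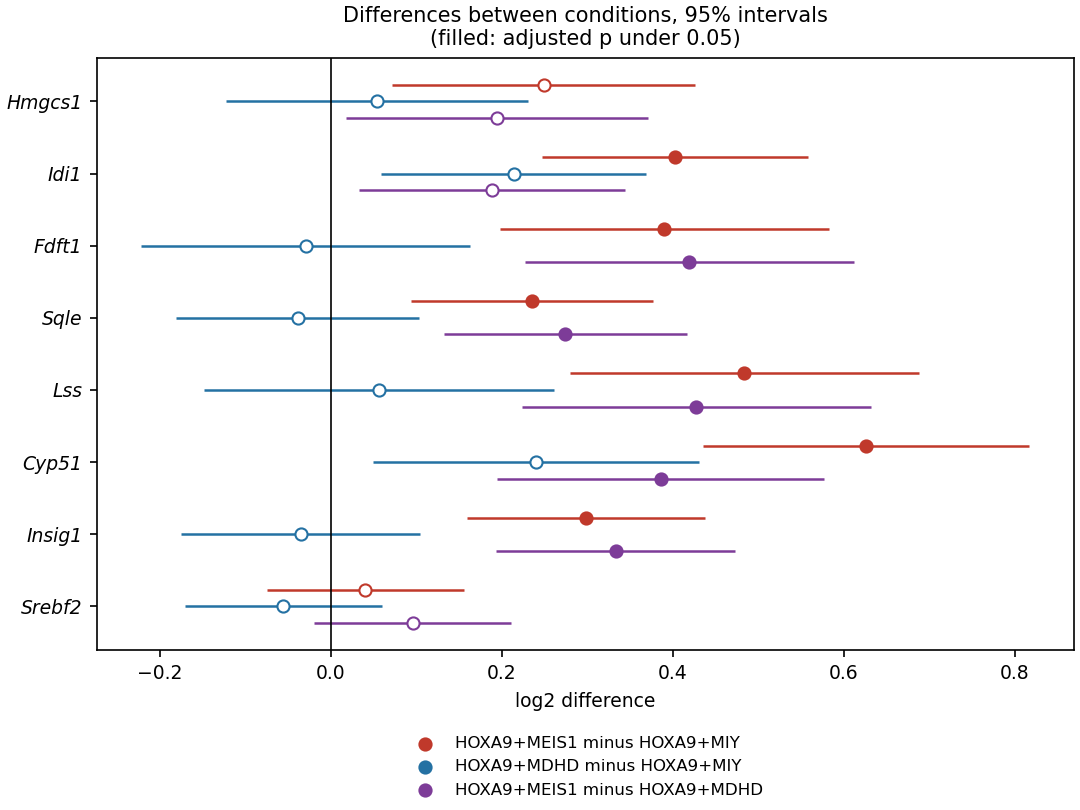
Differences in log2 value between conditions for the 8 sterol genes, with 95% intervals from the model over all 12 arrays; filled points are called at an adjusted p under 0.05. The points for HOXA9+MEIS1 minus HOXA9+MIY lie between 0.04 (Srebf2) and 0.63 (Cyp51), and those for HOXA9+MDHD minus HOXA9+MIY between -0.06 and 0.24.

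The markers of the cells moved between the same groups. Over all 20711 genes 1096 were called higher and 1150 lower in HOXA9+MEIS1 than in HOXA9+MIY. Of the late neutrophil list 11 of 11 measured genes were lower in HOXA9+MEIS1 than in HOXA9+MIY, and the summed level ran from 14.55 to 15.19 in HOXA9+MIY, from 12.93 to 13.23 in HOXA9+MEIS1 and from 12.75 to 14.78 in HOXA9+MDHD. Of the monocyte and macrophage list 7 of 10 were lower and 1 higher, with sums of 14.43 to 14.50, 13.06 to 13.52 and 13.83 to 14.60 in that order. The 1 higher was the macrophage marker Emr1 (1.07 ± 0.094, adjusted p = 1.87e-05). Of the stem and early progenitor list 6 of 8 were higher, with sums of 11.53 to 11.89, 12.82 to 13.17 and 12.47 to 12.90. That list holds Meis1, which both Meis1 vectors supply, so that its own rise was set by the design and enters these sums. Primary granule genes were lower in 2 of 4 (14.87 to 15.03, 14.44 to 14.70 and 14.47 to 14.69). Of the proliferation list 0 of 8 were called (14.05 to 14.46, 13.88 to 14.41 and 14.04 to 14.45), and 1, Mki67, was lower after quantile normalization. The part of these markers in the sterol gene differences was not tested, and in bulk RNA a change in the share of a cell type cannot be told apart from a change in RNA per cell.

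The lists of other cell types held few called genes, but the sums of 2 of them in HOXA9+MEIS1 lay above those of HOXA9+MIY with no overlap. In the erythroid list 1 of 4 genes was higher, Hbb-b1 (1.54 ± 0.31, adjusted p = 0.00594), a globin gene with near-identical copies, and the sums were 10.57 to 11.39 in HOXA9+MIY, 11.93 to 12.65 in HOXA9+MEIS1 and 11.53 to 13.03 in HOXA9+MDHD. In the list of stroma and endothelium 2 of 5 were higher, Pdgfrb (1.71 ± 0.17, adjusted p = 3.91e-05) and Pecam1 (0.49 ± 0.046, adjusted p = 3.21e-05), with sums of 11.64 to 11.77, 12.16 to 12.24 and 11.88 to 11.97 in that order. The part of these genes was not tested either. Of the B lymphoid list 1 of 4 was lower (Cd79b). No gene was called of the 5 of mast cells and basophils (sums of 11.83 to 12.39, 12.35 to 12.52 and 11.45 to 13.13) or of the 4 of T and NK cells. Ptprc was lower by 0.26 on the log2 scale (difference -0.26 ± 0.041, adjusted p = 0.00121).

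HOXA9+MDHD against HOXA9+MIY asks what is left without the homeodomain. Here 0 of the 8 genes were called in limma, against 1.91% of all genes in either direction, and 2 had an unadjusted p under 0.05, against 13.4% of all genes. Those are Cyp51 (0.24 ± 0.088, adjusted p = 0.231) and Idi1 (0.21 ± 0.071, adjusted p = 0.183). Idi1 was the 1 gene whose HOXA9+MDHD arrays lay above those of HOXA9+MIY with no overlap at either week, which held for 5.02% of all genes. The other differences were 0.06 for Lss, 0.05 for Hmgcs1, -0.03 for Fdft1, -0.04 for Sqle, -0.03 for Insig1 and -0.06 for Srebf2. Their 95% intervals ran as low as -0.22 (Fdft1) and as high as 0.26 (Lss). The median over the 8 was 0.01.

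With 4 arrays a condition these intervals leave room for small differences of either sign. At week 3 the HOXA9+MDHD arrays of Fdft1, Lss and Insig1 all lay below those of HOXA9+MIY, and at week 4 all lay above them. This held for 3 of the 8 genes and for 2.13% of all genes, and the genes were singled out after their values were seen. For Lss the difference was -0.16 at week 3 and 0.27 at week 4, for Fdft1 -0.24 and 0.19, and for Insig1 -0.17 and 0.10. The change in that difference was 0.43 ± 0.11 for Lss (adjusted p = 0.813), 0.43 ± 0.13 for Fdft1 (adjusted p = 0.978) and 0.28 ± 0.10 for Insig1 (adjusted p = 0.999). Of the markers, 4 of 11 late neutrophil genes and 3 of 10 monocyte genes were lower in HOXA9+MDHD than in HOXA9+MIY, with Emr1 higher (0.61). In the stem and early progenitor list, which holds the vector-supplied Meis1, 5 of 8 genes were higher. Over all 20711 genes 189 were called higher and 207 lower.

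The full-length and the deleted form of Meis1 were then compared directly. Of the 8 genes 5 were higher with full-length Meis1, against 2.24% of all genes and 3.21% of the 4143 brightest, and none lower. The differences were 0.43 ± 0.094 for Lss (adjusted p = 0.0223), 0.42 ± 0.088 for Fdft1 (adjusted p = 0.0177) and 0.39 ± 0.088 for Cyp51 (adjusted p = 0.0265). The regulator Insig1 differed by 0.33 ± 0.064 (adjusted p = 0.0108) and Sqle by 0.27 ± 0.065 (adjusted p = 0.0332). The arrays did not overlap at either week in these 5 genes, against 6.75% of all genes, a share not taken among the brightest.

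Hmgcs1 and Idi1 differed by 0.19 each (adjusted p = 0.265 and 0.204), with 95% intervals of 0.02 to 0.37 and 0.03 to 0.34. Srebf2 differed by 0.10 (adjusted p = 0.446, interval -0.02 to 0.21). The 3 comparisons share arrays, so that their values are set side by side and not counted as separate evidence. For Fdft1 the steps from HOXA9+MIY were 0.39 with full-length Meis1 and -0.03 with the deleted form, for Insig1 0.30 and -0.03, for Cyp51 0.63 and 0.24, and for Idi1 0.40 and 0.21.

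These 5 calls depended on single arrays more than those against HOXA9+MIY. The count was 1, Insig1, without the HOXA9+MEIS1 array of week 4 number 2 and without the HOXA9+MDHD array of week 3 number 1. It was 2 without the HOXA9+MEIS1 array of week 4 number 1 or the HOXA9+MDHD array of week 3 number 2, 3 without either HOXA9+MEIS1 array of week 3, and 4 without the HOXA9+MIY array of week 3 number 1 or the HOXA9+MDHD array of week 4 number 1. Sqle lost its call without any of these 8 arrays (adjusted p from 0.00863 to 0.108 over the 12), and Cyp51 without 7 of them, the HOXA9+MIY array being the exception (0.0039 to 0.0909). Lss lost it without either HOXA9+MEIS1 array of week 4 or the HOXA9+MDHD array of week 3 number 1 (0.021 to 0.0786), and Fdft1 without the HOXA9+MEIS1 array of week 4 number 2 or either HOXA9+MDHD array of week 3 (0.00189 to 0.0641). Idi1 gained a call without the HOXA9+MDHD array of week 4 number 1 (0.26, range 0.0335 to 0.423). The differences themselves stayed within 0.37 to 0.51 for Fdft1, 0.37 to 0.47 for Lss, 0.33 to 0.47 for Cyp51, 0.22 to 0.33 for Sqle and 0.29 to 0.38 for Insig1. With no week term 0 were called, and the share of all genes called in that fit is not given here. The late neutrophil markers were lower with full-length Meis1 in 6 of 11 genes and the monocyte markers in 6 of 10, with Emr1 higher (0.46). Over all 20711 genes 439 were called lower in that comparison.

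Each gene was then followed through its own probe sets, which report on different stretches of the transcript. In HOXA9+MEIS1 against HOXA9+MIY, 70 of the 194 probe sets were called higher and 0 lower, against 4.48% of 233798 probe sets called higher, and 171 lay above 0. Shares among bright probe sets were not taken, here or below. For Lss 22 of 25 were called, with differences from -0.003 to 0.86 and a median of 0.51. Cyp51 had 12 of 16 (median 0.58), Fdft1 12 of 15 (median 0.40), Idi1 10 of 15 (median 0.45) and Insig1 6 of 10 (median 0.32). In Hmgcs1, which was not called as a gene, 6 of 15 were called and 15 of 15 lay above 0 (0.01 to 0.51, median 0.32). In Sqle 2 of 15 were called, and all 15 lay between 0.14 and 0.30.

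Srebf2 had the most probe sets, 83, of which 0 were called and 63 lay above 0, with a median of 0.04. Its probe sets ranged from -0.19 to 0.38. The count of 70 was 45 without the HOXA9+MIY array of week 4 number 1 and between 47 and 77 without any other array. With no week term it was 4.

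In HOXA9+MDHD against HOXA9+MIY 0 of the 194 were called, against 1.09% called higher among all, and 13 had an unadjusted p under 0.05, against 12.3%. All 15 probe sets of Idi1 and 15 of 16 of Cyp51 lay above 0, while 70 of 83 of Srebf2 lay below. Between the Meis1 forms 40 were called higher with the full-length form, against 1.74%. These were 15 of Lss, 11 of Fdft1, 6 of Cyp51, 6 of Insig1 and 2 of Sqle. The 40 became 24 without the HOXA9+MEIS1 array of week 4 number 2, 26 without the HOXA9+MDHD array of week 3 number 1 and 1 with no week term.

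**Figure D3:**
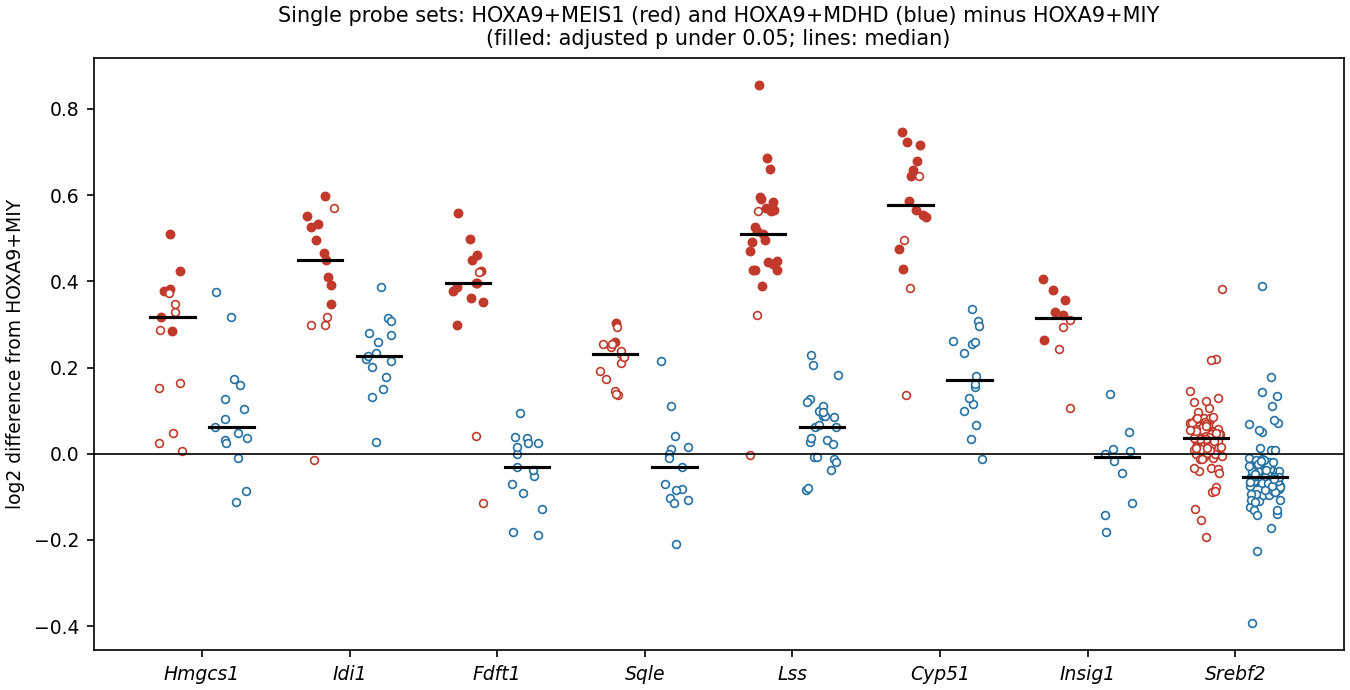
Difference in log2 value from HOXA9+MIY of each probe set of the 8 sterol genes, in HOXA9+MEIS1 (red) and HOXA9+MDHD (blue), with lines at the median and filled points called at an adjusted p under 0.05. The red points of Lss centre on 0.51 and the blue on 0.06, while both colours of Srebf2 centre near 0 (0.04 and -0.05).

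From week 3 to week 4, 5 of the 8 genes fell, against 28.1% of all genes called lower and 53.9% of the 4143 brightest genes. The median difference over the 8 was -0.28, against -0.02 over all genes and -0.17 over those 4143. The falls were -0.66 ± 0.072 for Cyp51 (adjusted p = 1.28e-05), -0.64 ± 0.058 for Idi1 (adjusted p = 3.75e-06) and -0.58 ± 0.052 for Insig1 (adjusted p = 3.59e-06). Those of Lss (-0.30 ± 0.077, adjusted p = 0.00703) and Sqle (-0.26 ± 0.053, adjusted p = 0.00151) were smaller. Fdft1 (-0.11), Hmgcs1 (-0.10) and Srebf2 (-0.08) were not called. In Idi1, Lss, Cyp51 and Insig1 the week 4 arrays lay below the week 3 arrays in every condition, against 22.8% of all genes. That share was not taken among the 4143 brightest. Fdft1 was called without the HOXA9+MDHD array of week 4 number 2 (-0.17, adjusted p = 0.0319, range 0.0319 to 0.474) and Srebf2 without that of week 3 number 1 (-0.11, adjusted p = 0.0386, range 0.0386 to 0.313).

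The fall depends in part on how the arrays are put on a scale. Of all calls between the weeks 70.6% were lower as the authors scaled the arrays, 58.1% after median centring and 53.8% after quantile normalization of the gene values. After quantile normalization Cyp51 (-0.50), Idi1 (-0.50) and Insig1 (-0.44) were called. Sqle (-0.12) and Lss (-0.14) were not, and Hmgcs1 (0.07), Fdft1 (0.03) and Srebf2 (0.07) changed sign without a call. As the authors scaled the arrays, 28.1% of all genes and 53.9% of the 4143 brightest were called lower at week 4. Called higher were 2426 of 20711. In the proliferation list 7 of 8 genes fell and in the late neutrophil list 5 of 11 rose between the weeks under each of the 3 scalings. Their part in the fall was not tested.

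Within the conditions the fall was called in 6 genes in HOXA9+MIY, all but Hmgcs1 and Srebf2, against 17% of all genes called lower there. In HOXA9+MEIS1 and in HOXA9+MDHD it was called in 3, the same Idi1, Cyp51 and Insig1, against 22.2% and 13.8% of all genes. These shares were not taken among the 4143 brightest genes, of which 53.9% were called lower over the conditions together. For Lss it was -0.61 ± 0.079 under the empty vector, -0.11 with full-length Meis1 and -0.18 with the deleted form. For Fdft1 the values were -0.36 ± 0.092, -0.04 and 0.07 in that order. Cyp51 fell by 0.88, 0.61 and 0.49 in the same order. Whether a contrast differed between the weeks was tested with interaction terms.

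None of the 8 passed in any contrast, and neither did any other gene (0% in HOXA9+MEIS1 minus HOXA9+MIY, 0% in HOXA9+MDHD minus HOXA9+MIY and 0% in HOXA9+MEIS1 minus HOXA9+MDHD). At an unadjusted p under 0.05 in limma there were 3, 4 and 0 of the 8, against 6.49%, 4.81% and 7.49% of all genes. The largest was Lss, whose difference between HOXA9+MEIS1 and HOXA9+MIY grew from 0.23 at week 3 to 0.73 at week 4 (change 0.50 ± 0.11, adjusted p = 0.384).

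**Figure D4:**
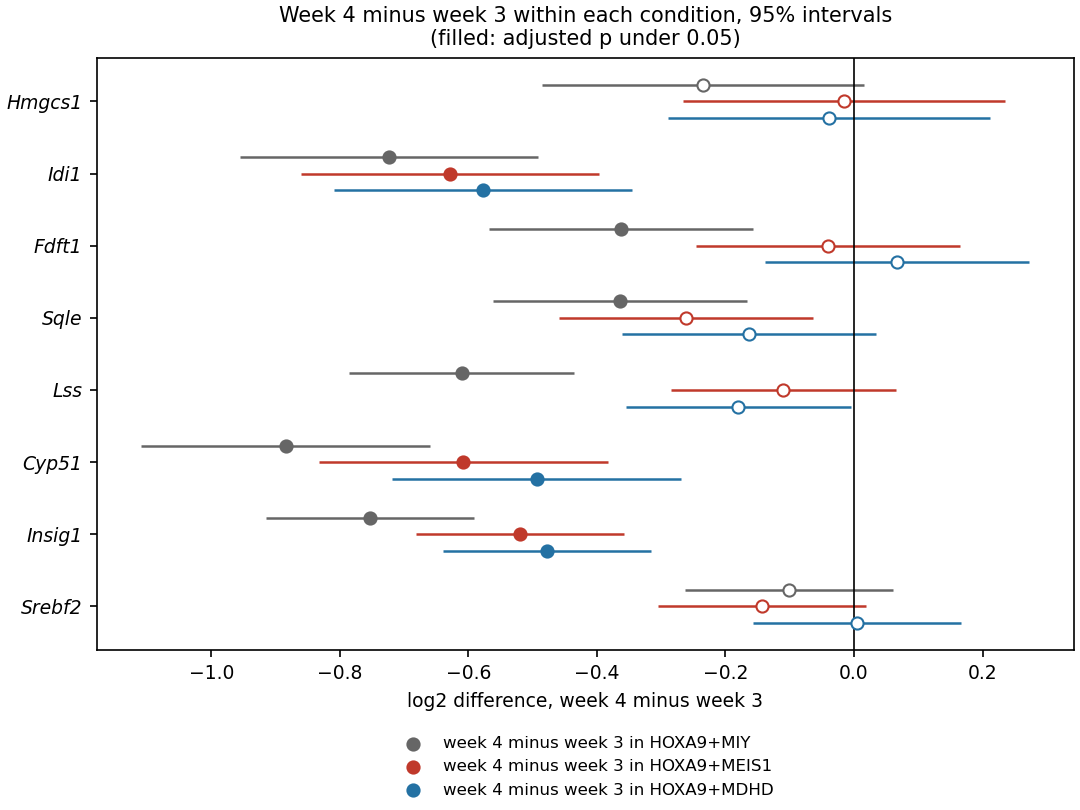
Difference in log2 value between week 4 and week 3 within each condition for the 8 sterol genes, with 95% intervals from the model with interaction terms; filled points are called at an adjusted p under 0.05. The falls of Cyp51 are 0.88, 0.61 and 0.49 in size in HOXA9+MIY, HOXA9+MEIS1 and HOXA9+MDHD, and those of Srebf2 lie near 0.

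The rest of the pathway was read from a list of 15 other enzymes of sterol synthesis, of which 12 were measured. In HOXA9+MEIS1 against HOXA9+MIY 9 of the 12 lay above 0, with a median of 0.16. Of the 12, 0 were called lower and 2 higher, against 5.29% of all genes called higher. The 2 were Nsdhl (0.25 ± 0.057, adjusted p = 0.0123) and Sc4mol (0.23 ± 0.065, adjusted p = 0.0412), which act together on the methyl groups of the ring after Cyp51. Hsd17b7, an enzyme of the same steps, stood at 0.35 (adjusted p = 0.0659). Neither median centring nor quantile normalization turned or ended a call of the 6 lists around the pathway in the comparisons of conditions. Calls were gained: after quantile normalization Fdps, which makes farnesyl diphosphate, was lower in HOXA9+MEIS1 and in HOXA9+MDHD than in HOXA9+MIY, in HOXA9+MEIS1 Pdss1 of the isoprenoid list was above HOXA9+MIY and Tm7sf2 above HOXA9+MDHD, and after median centring Sc5d was above HOXA9+MIY there. Against HOXA9+MDHD 3 of the 12 were higher, namely Sc5d (0.46), Nsdhl (0.34) and Pmvk (0.31), while 2.24% of all genes were. HOXA9+MDHD against HOXA9+MIY gave 0 calls (1 lower, Fdps, after quantile normalization), a median of -0.10 and 1 of 12 above 0. Between the weeks 28.1% of all genes and 53.9% of the 4143 brightest were called lower. Of the 12 enzymes 10 fell, led by Ebp (-0.71) and Mvk (-0.61). After quantile normalization 7 did, since Sc4mol, Sc5d and Fdps lost their calls and Fdps turned sign.

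Of 9 genes that control the SREBP factors 8 were measured. In HOXA9+MEIS1 against HOXA9+MIY 1096 of all 20711 genes were called higher and 1150 lower. Erlin2 was higher (0.23 ± 0.045, adjusted p = 0.0062) and Erlin1 lower (-0.20 ± 0.056, adjusted p = 0.0391) in HOXA9+MEIS1 than in HOXA9+MIY. Their products form a complex of the endoplasmic reticulum that binds the SREBP machinery. Scap, the escort, stood at -0.07 and Srebf1, the related factor of fatty acid synthesis, at -0.02, and neither was called. Against HOXA9+MDHD 1 was higher (Erlin2, 0.19), while 463 of all 20711 genes were, and HOXA9+MDHD against HOXA9+MIY gave 0 calls. Between the weeks 7 of the 8 fell, Rnf139 most (-0.61), against 28.1% of all genes called lower and 53.9% of the 4143 brightest. After quantile normalization 6 did. Insig2 rose (0.38 ± 0.072, adjusted p = 0.000881) where Insig1 fell.

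The list for sterol uptake and transport changed in both directions. Of its 10 measured genes 3 were higher and 5 lower in HOXA9+MEIS1 than in HOXA9+MIY, with a median of -0.20. Over all 20711 genes 1096 were called higher and 1150 lower. Vldlr, a lipoprotein receptor, was 2.81-fold higher (log2 1.49 ± 0.15, adjusted p = 4.58e-05), and Lrp1, a receptor of the same family that macrophages use for remnants, was 4.25-fold lower (log2 -2.09 ± 0.16, adjusted p = 7.3e-06). Lipa, the lysosomal lipase that frees cholesterol from esters, was lower by 0.61 on the log2 scale (-0.61 ± 0.077, adjusted p = 0.000239). So was Soat1, which makes esters for storage (-0.51 ± 0.096, adjusted p = 0.0043). Mylip was among the 3 higher (0.41 ± 0.11, adjusted p = 0.0273).

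Against HOXA9+MDHD 4 of these 10 were higher and 3 lower, with Vldlr at 1.33, Lrp1 at -1.25, Mylip at 0.57 and Lipa at -0.45. Over all 20711 genes 463 were called higher and 439 lower there. In HOXA9+MDHD against HOXA9+MIY 1 was lower, Lrp1 (-0.84 ± 0.16, adjusted p = 0.0235), while 207 of all 20711 genes were. Between the weeks 3 rose and 2 fell, against 6 and 0 after quantile normalization, with Vldlr (0.72) and Mylip (0.34) the largest rises. Over all 20711 genes 2426 were called higher and 5815 lower at week 4. The members of these lists that are not counted as measured are not analysed here.

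In the list of sterol efflux, which includes the genes of the LXR receptors, 3 of 6 genes were lower in HOXA9+MEIS1 than in HOXA9+MIY. Over all 20711 genes 1150 were called lower. Apoe, an apolipoprotein, was 2.20-fold lower (log2 -1.14 ± 0.084, adjusted p = 5.03e-06), the exporter Abca1 was 2.14-fold lower (log2 -1.10 ± 0.17, adjusted p = 0.000889), and Abcg1 was 1.27-fold lower (log2 -0.34 ± 0.056, adjusted p = 0.00164). The receptor genes Nr1h2 (-0.16) and Nr1h3 (0.05) were not called. The same 3 were lower against HOXA9+MDHD, with Abca1 at -1.18, where 439 of all 20711 genes were called lower. Apoe was lower in HOXA9+MDHD than in HOXA9+MIY (-0.72 ± 0.084, adjusted p = 0.003), as were 207 of all 20711 genes. Between the weeks Abcg1 rose (0.33) and Apoe fell (-0.25). Apoe lost that call after quantile normalization. Apoe, Abca1, Lrp1 and Lipa are abundant in macrophages. Of the monocyte and macrophage list 7 of 10 genes were lower in HOXA9+MEIS1 than in HOXA9+MIY, while Emr1 was higher. The part of these cells was not tested.

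Of 9 genes of the branch that leads to other isoprenoids 1 was lower in HOXA9+MEIS1 than in HOXA9+MIY (Dhdds, -0.21 ± 0.057, adjusted p = 0.0321), and 0 were called in the other comparisons of conditions. Between the weeks 8 of 9 fell, Pdss1 most (-0.79), and 7 did after quantile normalization, where 1 rose. Of all genes 28.1% were called lower between the weeks, and of the 4143 brightest 53.9%. Of 10 fatty acid genes known as SREBP targets 2 were higher with Meis1, the desaturase Scd1 (0.48 ± 0.089, adjusted p = 0.00366) and the elongase Elovl6 (0.53 ± 0.082, adjusted p = 0.00114). Over all 20711 genes 1096 were called higher and 1150 lower in HOXA9+MEIS1 than in HOXA9+MIY. Fasn (0.01) and Acly (0.02) were not called, and the median was 0.02. Scd1 was also higher than in HOXA9+MDHD (0.39), and HOXA9+MDHD against HOXA9+MIY gave 0 calls. Between the weeks 7 of 10 fell and 1 rose, with Scd1 (-0.78), Fasn (-0.76) and Fads2 (-0.73) the largest falls and Acss2 the rise (0.21). The 7 stand against the same shares of all genes and of the brightest. After median centring and after quantile normalization 6 fell.

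**Figure D5:**
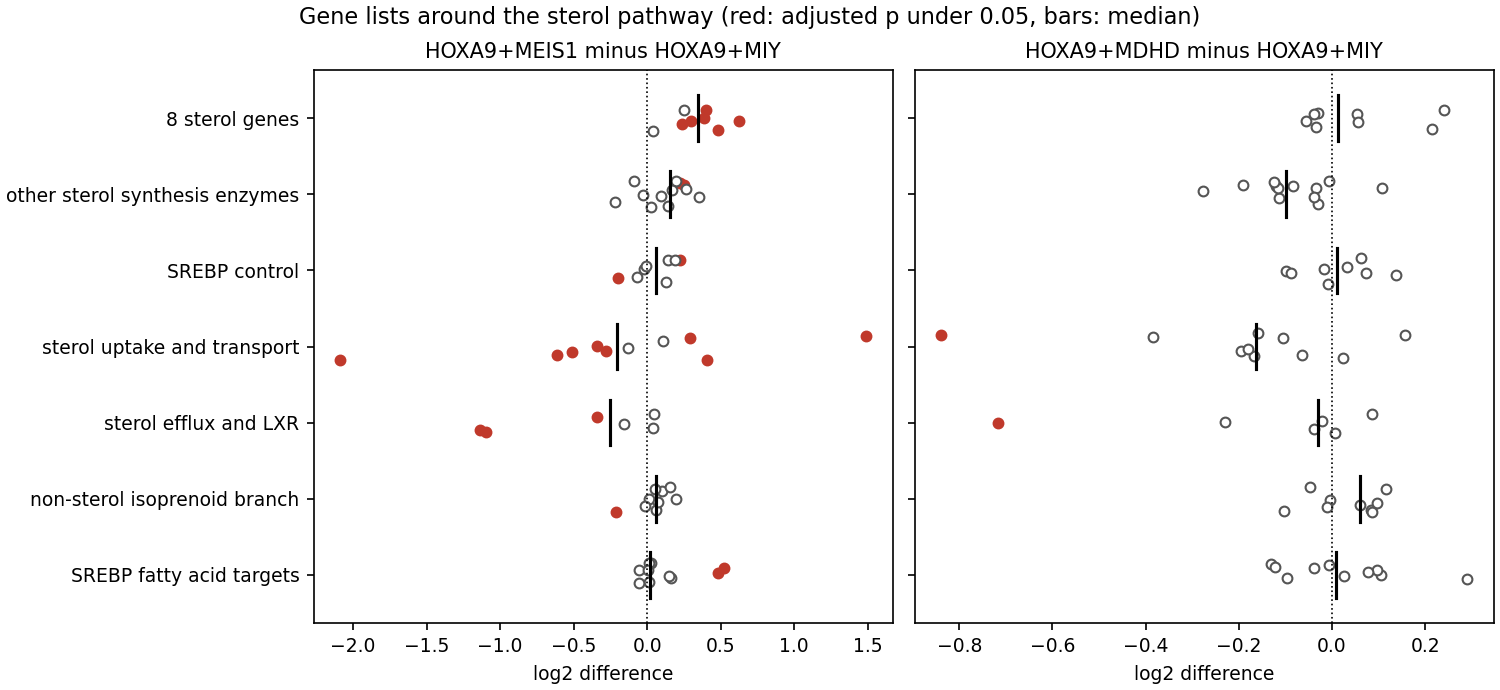
Difference in log2 value of every measured gene of the 8 sterol genes and of 6 lists around the pathway, in HOXA9+MEIS1 (left) and HOXA9+MDHD (right) against HOXA9+MIY, with bars at the median and red points called at an adjusted p under 0.05; the horizontal axes differ. The medians on the left are 0.34 for the 8 sterol genes and -0.20 for uptake and transport, and on the right 0 of the 8 sterol genes are red.

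The 8 genes varied together over the arrays. All 28 pairs had a correlation above 0, from 0.514 to 0.931 with a median of 0.767 over the 12 arrays, which share condition and week. With condition and week removed 26 of 28 were above 0 (-0.149 to 0.977, median 0.471). Pairs of other genes were not counted for comparison, so that neither count is shown to be particular to the 8. Sqle and Cyp51 were the closest pair (0.931), and Srebf2 was least like the mean of the 8 (0.719, against 0.981 for Cyp51).

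Outside the 8, the genes whose pattern over the 12 arrays was most like their mean were Hsd17b7 (r = 0.966), Tubb6 (0.961), Cdc14b (0.96), Lrrc58 (0.953), Hddc2 (0.951), Sc4mol (0.95), Bcs1l (0.949) and Ankib1 (0.944). Hsd17b7 and Sc4mol are enzymes of sterol synthesis. These correlations are a description of 12 arrays that share their conditions and weeks.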

How the data were processed

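RNA was measured on 12 Affymetrix mouse exon arrays, 1 per sample, in 3 conditions with 4 arrays each. Expression Console with RMA is the software that the submitters' processing notes name, without a version, and the table the authors deposited gives 1 log2 value for each probe set and array. Aligner and build do not apply, and the build of the probe set annotation is not given in the sources used here.

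From these values probe sets naming 1 gene symbol were kept where their mean over the 12 arrays exceeded 6.26, the median of all probe sets, and were combined per gene by median polish (at most 50 iterations). Two-sided tests used limma 3.58.1 (lmFit, eBayes with trend) in R 4.3.3 over 20711 genes, with condition and week as terms, 8 residual and 4.09 prior degrees of freedom, and Benjamini-Hochberg adjustment. Single probe sets were fitted over all 233798 kept, and a model with interaction terms tested whether a contrast changed with the week. Errors after ± are standard errors unless given as SD. Precision is limited by how many arrays there are. The fits were tested on simulated data.

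The 8 genes, the gene lists and the rule for naming genes were chosen with earlier results of these data known. That rule names all 8 genes, up to 4 called members of each list by size of change (2 of a list with no call), and the 8 genes most like the mean of the set. Scap, Srebf1, Nr1h2, Nr1h3, Fasn, Acly, Fdps, Tm7sf2, Emr1 and Mki67 were named after their values were seen, and the set of the 4143 brightest genes and the scaling of the lists were added then too. Alternatives were the filter, the gene summary, the normalization, the variance model, the week term, the replicate block, the samples in the fit and each array left out in turn. Promoters came from RefSeq's GRCm38.p6 table. Python 3.11.15, pandas 2.3.3 and matplotlib 3.10.9 drew the plots.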

Additional observations from a re-analysis of the deposited data

How the results depend on the processing

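In HOXA9+MEIS1 against HOXA9+MIY none of the 8 genes turned direction in any alternative. The 6 calls became 0 with no week term, 1 with the week 3 arrays alone and 4 with the week 4 arrays alone, and stayed within 5 to 7 as single arrays were left out. The 70 probe sets became 4 with no week term and 45 to 77 with single arrays left out. Sqle lost its call with the mean of the probe sets (adjusted p = 0.0904) and without the variance trend (0.0522), within a range of 0.00828 to 0.499 over its alternatives. Hmgcs1 gained one with median centring (0.0484) and with only the conditions compared (0.0329), within 0.0314 to 0.656. In HOXA9+MEIS1 against HOXA9+MDHD the 5 calls became 0 with no week term, 3 with week 3 alone, 0 with week 4 alone and 1 to 5 with single arrays left out. Its 40 probe sets became 1 with no week term and 24 to 55 with single arrays left out. In HOXA9+MDHD against HOXA9+MIY no gene was called in any alternative, and the called probe sets ran from 0 to 1 with single arrays left out. Small differences there turned sign: Hmgcs1 (-0.0433) and Lss (-0.16) with week 3 alone, and Fdft1 (0.19), Sqle (0.0619) and Insig1 (0.10) with week 4 alone. With single arrays left out they ran from -0.12 to 0.0246 for Fdft1, -0.10 to 0.0135 for Sqle, -0.0784 to 0.0035 for Insig1, -0.0039 to 0.12 for Lss and -5e-04 to 0.13 for Hmgcs1. Between the weeks the 5 calls became 3 after quantile normalization, where Hmgcs1 (0.0677), Fdft1 (0.0293) and Srebf2 (0.0668) turned sign, and 5 to 6 with single arrays left out. Apart from the no week term, whose spread holds the week difference, and the fits with fewer arrays, the causes of these changes were not tested. Shares of all genes called under these alternatives are not given here, so that no loss is shown to be particular to the 8.

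With the week and number of the labels as a replicate block, 6, 0 and 5 genes and 66, 0 and 39 probe sets were called in the 3 comparisons of conditions. Shares of all genes and of all probe sets called under that block are not given here. After condition and week were removed, arrays of the same week and number in different conditions correlated at -0.32 to -0.01. Those of the same week and different number correlated at -0.27 to 0.05. Among the arrays of other conditions, 0 arrays correlated best with that of their own week and number. The numbers were therefore not taken as pairs across conditions. Whether they pair week 3 with week 4 arrays of one condition was not checked, and no fit blocked on it. All calls of the 8 genes between conditions, weeks together, rest on differences of at most 1.54-fold, and with 4 arrays a condition smaller differences may go uncalled.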
